A study of Solanum lycopersicum with 12 samples.

Results

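Leaves of the edited tomato line *slmyb60Cr1* were compared with wild type leaves through 8 of the 12 RNA-seq libraries of the series, 4 for each genotype. The members were taken by the genotype and replicate number in their labels, and the 4 libraries of a second edited line, *slmyb60Cr2*, entered only the fits named as of all 12 libraries. Both groups are of the cultivar Red Setter. The wild type (WT) carried no edit, whereas *slmyb60Cr1* is a single homozygous line, free of the Cas9 transgene, with a CRISPR/Cas9 deletion in *SlMYB60* that is predicted to leave a truncated protein. For each replicate, discs of fully expanded leaves from 4 plants were pooled. The labels of all libraries, WT included, name a water stress of 14 days without irrigation, whereas the methods of the study mention no water deficit for the plants used for RNA. All groups share whichever condition applied, and its own effect was not measured.

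*SlMYB60* encodes a MYB transcription factor, a protein that binds DNA and regulates other genes. Its Arabidopsis homolog is known from guard cells, the paired cells that open and close the stomatal pore. The leaf surface around the stomata is sealed by the cuticle, a layer of cutin polyester and waxes that is made from fatty acids in epidermal cells and exported through the cell wall. The questions addressed here are which functions differed in level between *slmyb60Cr1* and WT leaves, and how far the answer rested on replicate 1 of *slmyb60Cr1*.

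Levels are given as TPM, a unit scaled for transcript length that sums to 1000000 in every library and keeps no sequencing depth. Of 33976 genes in the deposited table, 20736 reached 0.5 TPM in at least 4 of the 8 libraries and were tested. Fold changes are differences of log2(TPM + 0.1), which understates the changes of genes at low TPM. The test was limma with libraries of the same replicate number treated as pairs (a block), and a gene was called higher or lower when its Benjamini-Hochberg adjusted p, over all genes tested, was below 0.05 and its log2 fold change was beyond 1 in either direction. Unless another fit is named, values below are from this fit, and where a call is said to be lost in some alternatives, these are of up to 27 other settings of the processing and omissions of single libraries. Gene names come from the study and were taken for 122 of the identifiers it describes. Other identifiers, among them further genes that the study describes, carry no name here. No other annotation was at hand, so neither the leaf label nor the cell types in the discs could be checked against marker genes. In whole leaf discs, fewer cells of a type and less RNA per cell cannot be told apart.

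Of the 8 libraries, replicate 1 of *slmyb60Cr1* lay farthest from its group mean. Its root mean square deviation from its group mean was 0.515 on the log2 scale, against 0.320 to 0.405 in the other *slmyb60Cr1* libraries and 0.309 to 0.388 in WT. In this library 6.04% of the genes lay more than 1 log2 unit from the group mean, against at most 3.31% in any other. The first principal component of the 8 libraries held 31.6% of the variance and placed replicate 1 of *slmyb60Cr1* at −67.3, farther from the centre than any other library (−27.2 to 45.3). Along this component WT replicates 1 to 4 lay at −27.2, −26.3, 17.9 and 30.6. Those of *slmyb60Cr1* lay at −67.3, −2.57, 45.3 and 29.6. In both genotypes replicates 1 and 2 were thus on the negative side and replicates 3 and 4 on the positive side. The first component did not separate the genotypes. The second component, with 26.0% of the variance, did, with WT at 22.5 to 39.6 and *slmyb60Cr1* at −40.0 to −21.6. Depth and RNA quality could not be read from TPM. By the read counts that the study lists, this library was the most deeply sequenced of the *slmyb60Cr1* libraries. The part of depth and RNA quality in its position was not tested.

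With the block, 55 of the 20736 genes were called in *slmyb60Cr1* (0.265%), of which 35 were higher than in WT (0.169%) and 20 lower (0.0965%). All 55 moved in the same direction in 4 of 4 same-numbered pairs, and over all genes tested the log2 fold change had a median of −0.02. In 5 of the 55 the libraries of the groups nevertheless overlapped. Over all genes tested, the 4 *slmyb60Cr1* libraries lay above the 4 WT libraries in 4.6% and below them in 5.99%, which is the background for each statement below that groups did not overlap. Without the block, limma called 88 genes (0.424%), 54 higher (0.26%) and 34 lower (0.164%), of which 44 were among the 55. Of the 55 genes, 22 are among the identifiers given a name here, 13 of them higher and 9 lower. The study may describe some of the others. Apart from *SlMYB60*, the names come from lists of genes that the study found changed in these same libraries, in both edited lines. In each list below the share called and the direction were thus fixed in part by that choice. Nothing is read from the distance of these lists to the shares over all genes. In the 12-library fit with the block, where *slmyb60Cr2* adds to the estimate of the spread, 204 genes were called (0.984%), including 52 of the 55.

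The effect of replicate 1 of *slmyb60Cr1* on these counts depended on the block. With the block, leaving it out left 3 complete pairs and 30 calls (0.145%), 26 higher (0.125%) and 4 lower (0.0193%), of which 14 were among the 55. Of the 22 named genes 7 stayed called and 15 did not. The other 41 calls were lost and 16 were gained. Fold changes were then the same as without WT replicate 1, its partner, which gave 31 calls, because a library without a partner adds nothing to a paired difference. Leaving out either library of pair 2 left 1 call, either library of pair 3 left 12 or 4, and either library of pair 4 left 16 or 14. Every such omission takes a whole pair from the fit with the block. A call lost in this way therefore does not by itself show that it rested on replicate 1. Without the block, leaving out replicate 1 of *slmyb60Cr1* raised the calls from 88 to 221 (1.07%), 174 higher (0.839%) and 47 lower (0.227%), whereas leaving out any of the other 7 libraries left 42 to 66. Of the 88, 83 were among the 221. A further 138 genes were called without the block only once replicate 1 was left out, 125 of them higher, and in 69 of these 138 (50.0%) replicate 1 lay inside the WT range. Over all genes tested that share was 43.6%. The plot of calls by the library left out shows both series of counts.

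**Figure D1:**
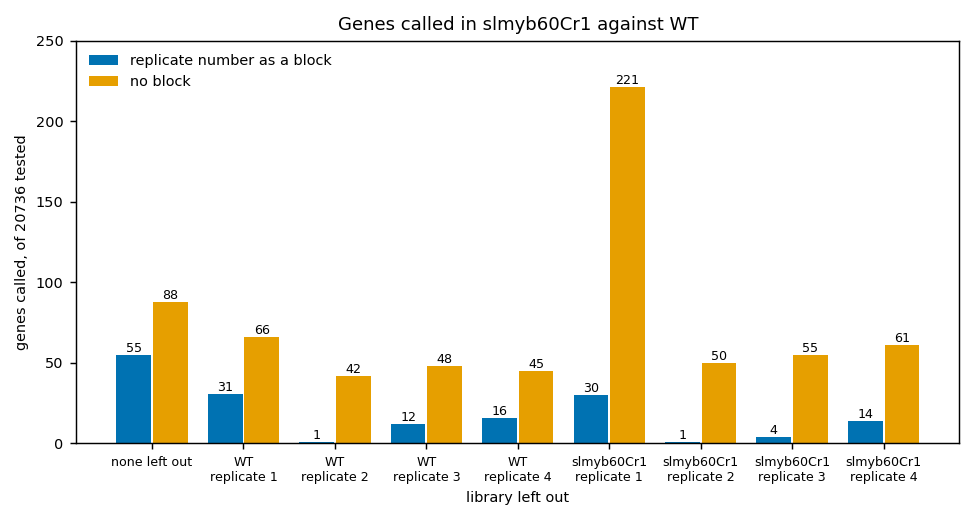
Number of genes called in slmyb60Cr1 against WT (y axis, of 20736 genes tested by limma) when no library or 1 of the 8 libraries was left out (x axis), with the replicate number as a block (blue bars) and without it (orange bars). Without the block the count was 221 when slmyb60Cr1 replicate 1 was left out and between 42 and 66 when any other library was, whereas with the block every omission lowered the count from 55.

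The edited gene checked the labels. *SlMYB60* (Solyc10g081490, chromosome 10) was at 12.9, 12.3, 19.3 and 21.6 TPM in WT replicates 1 to 4 and at 1.57, 2.10, 2.78 and 2.30 TPM in those of *slmyb60Cr1*. Every *slmyb60Cr1* library lay below every WT library, with replicate 1 the lowest of its group. The mean fell to 13.2% of the WT mean, a log2 fold change of −2.85 (standard error 0.14, limma adjusted p = 0.00723). An exact permutation test on TPM, two-sided, gave p = 0.0286, the smallest p that 4 libraries against 4 allow. Without replicate 1 of *slmyb60Cr1* the call held, with the block (log2 fold change −2.81) and without it (−2.70). With the block, leaving out either library of pair 2 or of pair 3 brought its adjusted p above 0.05, so that it was not called (limma adjusted p = 0.0532 to 0.0846, log2 fold change −2.96 to −2.88). TPM was estimated over the whole reference transcript, and reads missing from the deleted stretch were not separated from a lower transcript level.

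**Figure D2:**
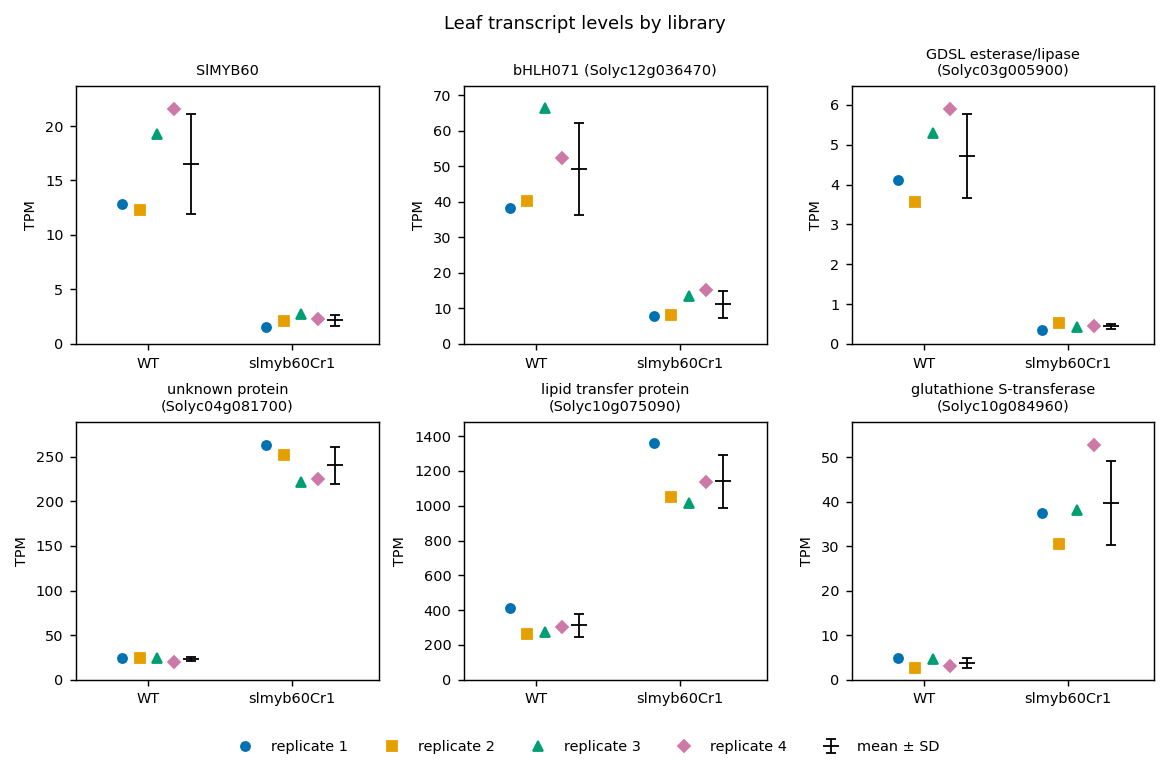
TPM in the 4 WT and the 4 slmyb60Cr1 libraries (points, shape and colour by replicate number) with the group mean ± SD (black), for 6 called genes, each on its own linear axis from 0. The groups do not overlap in any panel, and SlMYB60 is at 12.3 TPM or more in WT and at 2.78 TPM or less in slmyb60Cr1.

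In the list of cuticle and acyl lipid genes, those called lower in *slmyb60Cr1* were a pair of acyl-transferases, a GDSL esterase/lipase and a ketoacyl-CoA synthase. Those called higher were a pair of lipid transfer proteins, an aldehyde dehydrogenase and a gene given as a phosphodiesterase, whose name is in doubt. The list has 22 genes, which the study picked from these same libraries, so their direction is not independent evidence. Of these, 18 were tested and 4 lay below the TPM limit. With the block, 4 were called higher, 4 lower and 10 were not called, against 0.265% of all genes, and the median log2 fold change was 1.20 against −0.02 over all genes. In 17 of the 18 the 4 pairs moved one way, which holds for 26.8% of all genes tested. Without the block 6 were called higher and 5 lower, and with neither the block nor replicate 1 of *slmyb60Cr1*, 6 and 6. With the block but without this replicate, limma called 3 higher and 0 lower (12 and 6 with an unadjusted p below 0.05).

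The largest fall of the list was that of the GDSL esterase/lipase Solyc03g005900, from a family of hydrolases that includes the enzymes known in tomato to join cutin monomers. It was at 4.11, 3.57, 5.29 and 5.89 TPM in the WT libraries and at 0.353, 0.520, 0.438 and 0.461 TPM in *slmyb60Cr1*. The groups did not overlap, and the *slmyb60Cr1* libraries were close to one another (log2 fold change −3.13, standard error 0.22, limma adjusted p = 0.0184). Its call was lost in 9 of the 27 alternatives, among them the fit with the block and without replicate 1 of *slmyb60Cr1*, and with a pseudocount of 1 its log2 fold change was −1.97. A further GDSL esterase/lipase, Solyc11g032050, was at 0.956, 0.849, 1.18 and 0.684 TPM in WT and at 0.179, 0.0989, 0.237 and 0.205 TPM in *slmyb60Cr1*. It was not called with the block (log2 fold change −1.86, limma adjusted p = 0.0883) and was without it, although its groups did not overlap.

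The acyl-transferases Solyc05g052650 and Solyc05g052680, of a class of enzymes that move acyl groups onto acceptor molecules, both fell. Solyc05g052650 was at 5.47, 8.05, 3.61 and 4.00 TPM in WT and at 0.606, 0.495, 0.898 and 0.439 TPM in *slmyb60Cr1* (log2 fold change −2.89, standard error 0.32, limma adjusted p = 0.0423, and a log2 fold change of −1.92 with a pseudocount of 1). Solyc05g052680 was at 21.6, 24.7, 13.5 and 14.2 TPM in WT and at 4.35, 5.16, 4.05 and 2.21 TPM in *slmyb60Cr1* (log2 fold change −2.22, standard error 0.16, limma adjusted p = 0.0188). In both genes every *slmyb60Cr1* library lay below the WT range, and replicate 1 was not extreme in its group. Between these identifiers lies Solyc05g052670, for which no name was at hand and which was chosen after its values were seen. It was at 41.9, 39.8, 25.6 and 26.4 TPM in WT and at 3.93, 4.15, 8.08 and 6.77 TPM in *slmyb60Cr1*, again with no overlap. It was called without the block but not with it (log2 fold change −2.55, limma adjusted p = 0.0574). Reads of genes with similar sequences can be divided among them by the quantification, and the similarity of these genes was not examined.

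Solyc02g063140, a ketoacyl-CoA synthase in one place of the study and an acyl-CoA synthetase in another, was at 2.18, 3.98, 5.65 and 4.53 TPM in WT and at 0.684, 0.490, 1.19 and 0.995 TPM in *slmyb60Cr1*. Ketoacyl-CoA synthases lengthen the acyl chains from which waxes are made. The gene fell without overlap of the groups (log2 fold change −2.14, standard error 0.24, limma adjusted p = 0.0436), and its call was lost in 18 of the 27 alternatives. The cytochrome P450 Solyc01g094750, of a superfamily that includes fatty acid hydroxylases, was at 2.51, 2.32, 2.77 and 2.61 TPM in WT and at 1.59, 0.579, 1.00 and 1.07 TPM in *slmyb60Cr1*. Replicate 1 of *slmyb60Cr1* was the nearest to WT, and among the fits without the block the gene was called in the one that left out that library. With all 8 libraries and the block its log2 fold change was −1.26 (limma adjusted p = 0.101).

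Lipid transfer proteins, small proteins that carry lipids through the cell wall, were the most abundant genes of the list. Solyc10g075090 was at 409.9, 260.2, 276 and 302 TPM in WT and at 1358, 1053, 1016 and 1137 TPM in *slmyb60Cr1*, where replicate 1 was the highest. It rose with one of the 5 smallest adjusted p values of all genes (log2 fold change 1.88, standard error 0.08, limma adjusted p = 0.00536), and stayed called without that replicate, with the block and without it. Solyc10g075103 was at 97.6, 72.9, 37.4 and 76.2 TPM in WT and at 277, 173, 191 and 237 TPM in *slmyb60Cr1*, with no overlap of the groups. It rose by a log2 fold change of 1.68 (standard error 0.18, limma adjusted p = 0.04). Of the genes given a name here, it was the 1 whose call without the block was lost when replicate 1 of *slmyb60Cr1* was left out.

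The largest rise of the list was that of Solyc02g150135, given as a glycerophosphoryl diester phosphodiesterase, an enzyme class that releases glycerol phosphate from deacylated phospholipids. The study's materials pair this name with differing identifiers. In its list of genes changed in both lines, a phosphodiesterase name stands with Solyc02g094400. An identifier nearly the same as Solyc02g150135 is given there as an unknown protein. The name of Solyc02g150135 is therefore in doubt, and with it the place of this gene in the list and among the calls of the list. Solyc02g094400, given as phosphodiesterase GDPD2, was at 2.54, 2.01, 2.70 and 2.32 TPM in WT. In *slmyb60Cr1* it was at 4.63, 5.465, 5.11 and 6.16 TPM, without overlap. It was not called with the block (log2 fold change 1.13, limma adjusted p = 0.0612) and was without it. Solyc02g150135 was at 0.615, 1.40, 0.747 and 1.56 TPM in WT and at 7.19, 15.6, 9.02 and 11.4 TPM in *slmyb60Cr1*, a log2 fold change of 3.24 (standard error 0.16, limma adjusted p = 0.00723) with no overlap. Its call was lost in 3 of the 27 alternatives and held without replicate 1 of *slmyb60Cr1*. The aldehyde dehydrogenase Solyc04g056713, of a family that oxidises aldehydes to acids, was at 6.64, 6.54, 8.50 and 7.78 TPM in WT and at 16.6, 17.1, 15.2 and 14.4 TPM in *slmyb60Cr1*. Its rise was close to the threshold for size (a log2 fold change of just over 1 with a standard error of 0.13, limma adjusted p = 0.0456), with every *slmyb60Cr1* library above every WT library. The call was lost in 11 of the 27 alternatives, among them the fit with the block and without replicate 1 of *slmyb60Cr1* (limma adjusted p = 0.0856).

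The ABC transporters of the list, membrane pumps of which the G family member 11 is known in Arabidopsis to export cuticular lipids, were higher on average than in WT in 5 of 5 tested genes, and limma called 0 of the 5 with the block (5 with an unadjusted p below 0.05). Solyc05g051540, named as family member 11, was at 41.4, 53.6, 47.6 and 31.8 TPM in WT and at 220.2, 139.5, 49.4 and 91.0 TPM in *slmyb60Cr1*. Its neighbour in identifier, Solyc05g051530, with the same name, was at 24.0, 28.2, 24.7 and 16.6 TPM in WT and at 103, 67.8, 27.4 and 46.9 TPM in *slmyb60Cr1*. In both genes replicate 1 of *slmyb60Cr1* was the highest library and replicate 3 lay within the WT range, and the changes were 1.34 and 1.25 on the log2 scale (adjusted p from limma = 0.155 and 0.135). Without replicate 1 and without the block they were 1.00 and 0.95. Solyc10g085950 was at 1.69, 1.47, 2.81 and 3.05 TPM in WT and at 8.68, 7.36, 7.05 and 5.42 TPM in *slmyb60Cr1*. It was called without the block and not with it (log2 fold change 1.66, limma adjusted p = 0.0883). The A family members Solyc06g070950 and Solyc06g070960 were at 0.809 to 1.40 and 0.759 to 2.16 TPM in *slmyb60Cr1*, above all WT libraries, which were at most at 0.436 and 0.639 TPM.

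Of the remaining tested genes of the list, the fatty acid desaturase Solyc12g100240, which by its class puts double bonds into acyl chains, was at 58.9, 70.3, 65.6 and 52.4 TPM in WT and at 164, 109.5, 127 and 196 TPM in *slmyb60Cr1*. It was not called with the block (log2 fold change 1.24, limma adjusted p = 0.0841) and was called without it. The acyl-CoA synthetase Solyc02g082910, of a class that activates fatty acids, was at 1.04, 0.875, 0.574 and 0.607 TPM in WT and at 3.25, 2.18, 1.17 and 1.59 TPM in *slmyb60Cr1*. Its groups did not overlap and it was not called (log2 fold change 1.24, limma adjusted p = 0.0835). The peroxidase Solyc11g018774 was the gene of the list in which replicate 1 weighed most. It was at 6.15, 9.08, 10.0 and 18.8 TPM in WT and at 4.50, 82.0, 67.2 and 126 TPM in *slmyb60Cr1*, so that replicate 1 lay below all WT libraries and the other 3 above them. With all libraries its log2 fold change was 2.05 (standard error 0.62, limma adjusted p = 0.186). Without replicate 1 it was 2.88 with the block and 3.11 without it, and the gene was called in both.

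The 4 genes below the TPM limit had no test. The ABC transporter Solyc06g076930 was at 0.296 to 0.306 TPM in WT and 0.0842 to 0.132 TPM in *slmyb60Cr1*, and the peroxidase Solyc10g047110 at 0.329 to 0.865 and 0 to 0.111 TPM. Both were lower in every *slmyb60Cr1* library than in any WT library. The acyl-transferase Solyc12g096790 was at 0.0722 to 0.176 TPM in WT and 0.297 to 0.480 TPM in *slmyb60Cr1*, without overlap, and the acylhydrolase Solyc06g060870 at 0.0356 to 0.103 and 0.0623 to 0.813 TPM. In the acylhydrolase replicate 1, at 0.0623 TPM, was the 1 library of *slmyb60Cr1* inside the WT range.

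**Figure D3:**
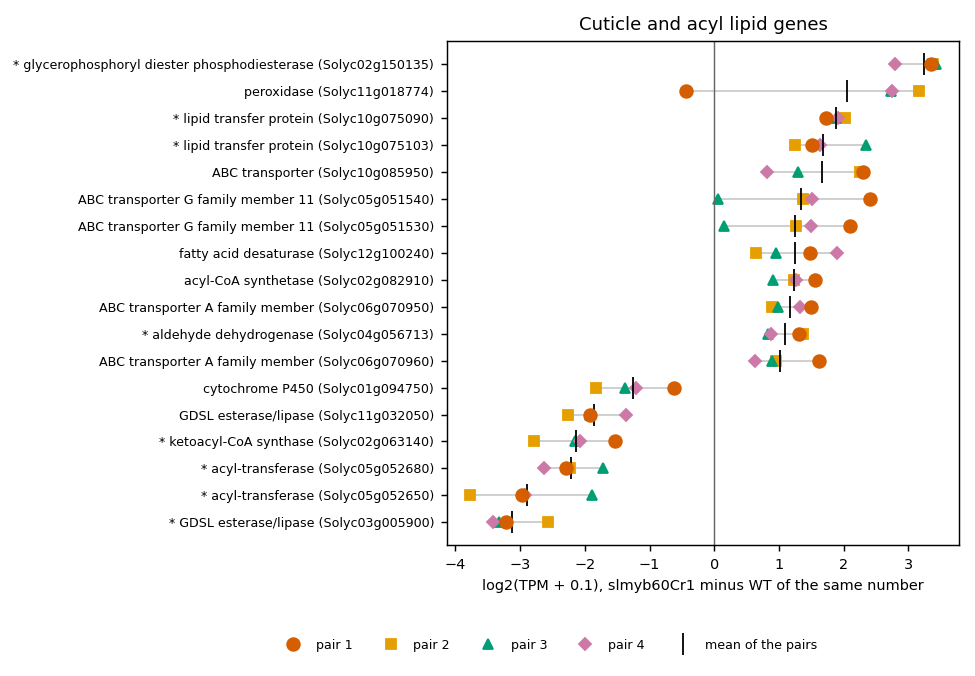
Difference of log2(TPM + 0.1) between slmyb60Cr1 and WT (x axis) in each same-numbered pair (points, pair 1 as large orange circles) and their mean (black bar) for the 18 tested genes of the cuticle and acyl lipid list (y axis), with an asterisk before those called by limma with the block. Pair 1 lies at the upper end for the ABC transporters, and for the peroxidase Solyc11g018774 it is the only pair below 0.

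The xyloglucan endotransglucosylase/hydrolases, enzymes that cut xyloglucan chains of the cell wall and join them again, were higher on average in *slmyb60Cr1* in 7 of 7 genes, and none of them was called with the block. These 7 genes also came from the study's own choice on these libraries. Limma called 0 of 7 with the block (7 had an unadjusted p below 0.05, adjusted p from 0.0956 to 0.153), 0 without the block and 0 with the block and without replicate 1 of *slmyb60Cr1* (7 with an unadjusted p below 0.05 in either). Without the block and without this replicate it called 5 of 7, against 1.07% of all genes, and in the 12-library fit also 5 of 7, against 0.984%. The median log2 fold change of the list was 2.46, and 2.97 without the block and this replicate. Pair 1 had the smallest change in 7 of 7 genes, which holds for 26.3% of all genes tested. The median log2 ratio of the list was 0.58 in pair 1, 1.78 in pair 2, 3.60 in pair 3 and 3.78 in pair 4.

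Solyc03g093110 had the largest log2 fold change of these genes, 2.99 (standard error 0.56, limma adjusted p = 0.0956). It was at 1.03, 0.836, 0.961 and 1.03 TPM in WT and at 2.08, 6.61, 15.4 and 22.0 TPM in *slmyb60Cr1*, so that replicate 1 was the nearest to WT and the other libraries spread over a wide range. Solyc03g093120 was at 0.852, 0.622, 0.746 and 0.634 TPM in WT and at 1.25, 3.65, 10.2 and 13.9 TPM in *slmyb60Cr1*. Solyc03g093080 was at 2.65, 2.22, 1.45 and 1.60 TPM in WT and at 4.75, 7.86, 18.6 and 26.4 TPM in *slmyb60Cr1*. In these 3 genes all *slmyb60Cr1* libraries lay above WT, with replicate 1 the lowest. Solyc03g093130, a family member 3, was at 6.15, 3.00, 2.69 and 3.94 TPM in WT and at 5.95, 16.7, 34.8 and 55.5 TPM in *slmyb60Cr1*, where replicate 1 lay inside the WT range. The identifiers of these 4 genes lie close together on chromosome 3, and shared reads could have been divided among them.

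On chromosome 12, Solyc12g011023 was at 0.747, 0.551, 0.302 and 0.508 TPM in WT and at 1.27, 1.55, 3.14 and 2.70 TPM in *slmyb60Cr1*. Solyc12g011030, a family member 9, was at 2.46, 1.06, 0.756 and 1.13 TPM in WT and at 3.73, 2.82, 3.17 and 3.94 TPM in *slmyb60Cr1*, and was the gene of this list in which replicate 1 did not stand below the other libraries of its group. Solyc09g092520, given as an endotransglycosylase, was the most abundant, at 21.9, 22.9, 22.5 and 30.0 TPM in WT and 26.0, 41.4, 43.6 and 94.8 TPM in *slmyb60Cr1*. Replicate 1 overlapped with WT in this gene, and the log2 fold change was 0.93 (limma adjusted p = 0.13). The 2 genes of the list not called without the block and replicate 1 were Solyc12g011030 and Solyc09g092520.

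The list of other cell wall genes taken from the study had 15 genes, of which 12 were tested. They too were picked by the study from these libraries. With the block 1 was called higher and 1 lower, against 0.169% and 0.0965% of all genes, and 11 of the 12 had a positive log2 fold change, with a median of 1.65. With the block but without replicate 1 of *slmyb60Cr1*, limma called 0 (11 higher genes and 1 lower with an unadjusted p below 0.05). Without the block limma called 1 higher and 0 lower, and with neither block nor replicate 1 of *slmyb60Cr1*, 6 higher and 0 lower (1 lower gene with an unadjusted p below 0.05 in either). The expansin Solyc09g018020, of a family of proteins that loosen cell walls, was at 3.74, 3.82, 5.92 and 6.88 TPM in WT and at 13.7, 17.7, 26.3 and 17.9 TPM in *slmyb60Cr1*. It rose without overlap of the groups (log2 fold change 1.88, standard error 0.16, limma adjusted p = 0.025), and its call was lost in 12 of the 27 alternatives. The proline-rich protein Solyc10g054900 was at 5.12, 0.617, 1.77 and 1.31 TPM in WT and at 0.332, 0.0523, 0.141 and 0.139 TPM in *slmyb60Cr1*. Its fall, a log2 fold change of −2.84 (standard error 0.34, limma adjusted p = 0.048) followed the pairing, since replicate 1 was the highest library in both groups, and the call was lost without the block and in 23 of the 26 alternatives in all. With a pseudocount of 1 its log2 fold change was −1.28.

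Some genes of this list were called when both the block and replicate 1 were left out, but not when replicate 1 alone was. The cellulose synthase Solyc03g097050 was at 3.86, 3.53, 2.39 and 3.03 TPM in WT and at 5.27, 13.2, 13.8 and 22.6 TPM in *slmyb60Cr1*, where replicate 1 was close to WT (log2 fold change 1.91, limma adjusted p = 0.109, and 2.31 without the block and replicate 1). Solyc04g074410, an EXORDIUM-like gene of a family known from leaf growth in Arabidopsis, was at 26.9, 21.5, 17.4 and 15.6 TPM in WT and at 31.9, 46.8, 113 and 153 TPM in *slmyb60Cr1* (log2 fold change 1.84, limma adjusted p = 0.167). The fucosyltransferase Solyc09g011860, which by its name adds fucose to proteins, was at 4.54, 5.94, 7.02 and 7.69 TPM in WT and at 5.85, 19.6, 22.4 and 38.6 TPM in *slmyb60Cr1*. The invertase/pectin methylesterase inhibitor Solyc03g083730, of a family of proteins that block wall enzymes, was at 4.44, 4.46, 12.3 and 10.5 TPM in WT and at 7.34, 35.1, 31.6 and 28.2 TPM in *slmyb60Cr1*. In the last 2 genes replicate 1 lay inside the WT range, and none of these 4 genes was called with all 8 libraries, with the block or without it, although the cellulose synthase was with the block as a random effect.

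**Figure D4:**
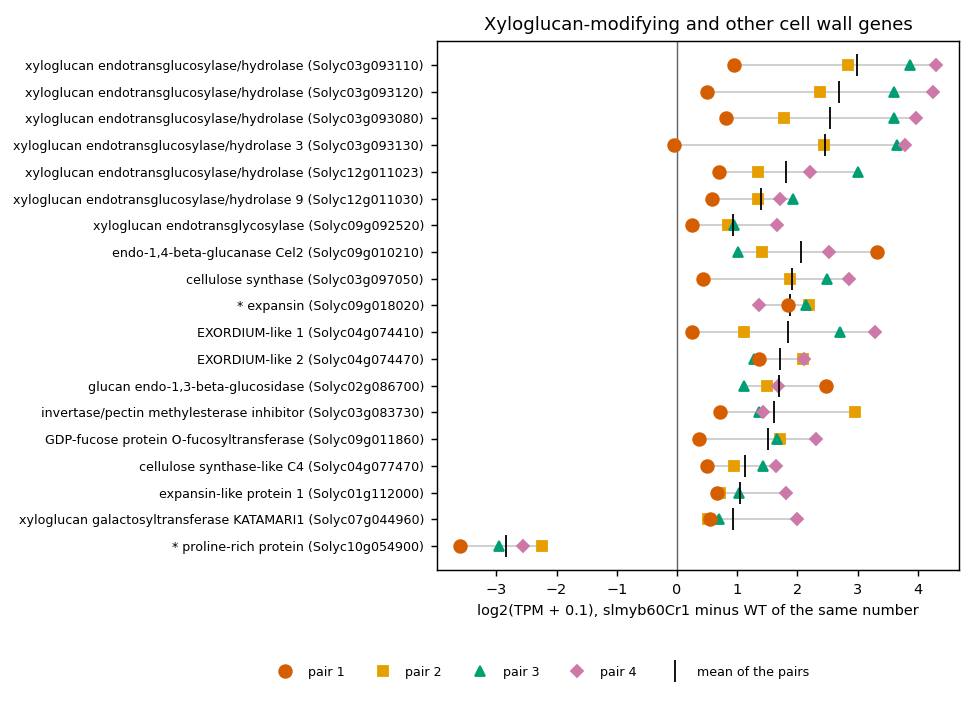
Difference of log2(TPM + 0.1) between slmyb60Cr1 and WT (x axis) in each same-numbered pair (points, pair 1 as large orange circles) and their mean (black bar) for the 7 xyloglucan endotransglucosylase/hydrolase genes (top) and the 12 other cell wall genes tested (y axis), with an asterisk before those called by limma with the block. Pair 1 is the lowest point in 7 of the 7 xyloglucan genes, at −0.05 for Solyc03g093130, while pairs 3 and 4 lie farthest to the right in most of them.

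Among 15 tested transcription factors, which the study listed as changed in these libraries, 1 was called higher and 1 lower with the block (0.169% and 0.0965% of all genes). The bHLH protein Solyc12g008930 was at 2.03, 1.74, 4.58 and 1.86 TPM in WT and at 17.1, 15.2, 15.7 and 16.6 TPM in *slmyb60Cr1*. It rose without overlap, and its *slmyb60Cr1* libraries lay close together (log2 fold change 2.73, standard error 0.26, limma adjusted p = 0.0358), although WT replicate 3 stood apart from the other WT libraries. Its call was lost in 9 of the 27 alternatives, among them the fit with the block and without replicate 1 of *slmyb60Cr1* (limma adjusted p = 0.0698). The bHLH transcription factor 071 (Solyc12g036470) was at 38.3, 40.3, 66.3 and 52.5 TPM in WT and at 7.82, 8.11, 13.6 and 15.2 TPM in *slmyb60Cr1*. In both groups replicates 3 and 4 were above replicates 1 and 2, and the fall was similar in every pair (log2 fold change −2.16, standard error 0.11, limma adjusted p = 0.0073). The call held without replicate 1 of *slmyb60Cr1*, with the block and without it.

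Other regulators missed the threshold with the block. The homeobox gene Solyc12g010410, a knotted-1-like 3, was at 7.01, 4.41, 6.14 and 2.71 TPM in WT and at 29.1, 20.9, 14.0 and 22.1 TPM in *slmyb60Cr1* and was called without the block (log2 fold change 2.10, limma adjusted p = 0.0598 with it). The AP2/B3 gene Solyc04g007000 was at 36.5, 20.3, 17.7 and 17.0 TPM in WT and at 2.91, 4.61, 5.91 and 8.83 TPM in *slmyb60Cr1* and was called without the block as well (log2 fold change −2.06, limma adjusted p = 0.109 with it). Ethylene Response Factor D.4 (Solyc10g050970), of a family that acts in ethylene and stress responses, was at 0.236, 0.0882, 2.22 and 0.235 TPM in WT and at 0.329, 7.20, 12.8 and 20.6 TPM in *slmyb60Cr1*. Replicate 1 lay within the WT range there and the other libraries above it, and of the 27 alternatives the fit without the block and without that replicate was the only one to call it (log2 fold change 3.51 with all libraries and the block, limma adjusted p = 0.161). A further ethylene-responsive factor, Solyc07g042230, was at 0.158, 0.178, 0.424 and 0 TPM in WT and at 0.681, 2.59, 1.67 and 2.29 TPM in *slmyb60Cr1*, the lowest value again in replicate 1.

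Of the redox, defence and stress genes taken from those that the study listed as changed in these libraries, 15 were tested. With the block 2 were called higher and 0 lower (0.169% and 0.0965% of all genes), and limma gave 1 lower gene an unadjusted p below 0.05. The glutathione S-transferases Solyc10g084960 and Solyc06g075520, enzymes that attach glutathione to reactive compounds, were those 2. Solyc10g084960 was at 4.84, 2.74, 4.74 and 3.01 TPM in WT and at 37.5, 30.5, 38.2 and 52.7 TPM in *slmyb60Cr1* (log2 fold change 3.36, standard error 0.21, limma adjusted p = 0.0122). Solyc06g075520 was at 1.56, 1.57, 2.23 and 2.22 TPM in WT and at 12.3, 15.6, 10.2 and 32.1 TPM in *slmyb60Cr1* (log2 fold change 3.02, standard error 0.27, limma adjusted p = 0.0312). Neither gene showed overlap, replicate 1 lay among the others, and the calls were lost in 5 of the 27 and 11 of the 27 alternatives.

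Several stress genes had replicate 1 of *slmyb60Cr1* near WT. Others did not: in the direction of each gene's change, pair 1 was the smallest in 8 of the 15 tested and the largest in 4. Solyc03g121620, named as a late embryogenesis abundant hydroxyproline-rich glycoprotein, was at 27.2, 23.4, 31.1 and 21.4 TPM in WT. In *slmyb60Cr1* it was at 24.9, 60.8, 74.5 and 114 TPM. Solyc01g095150, given as a late embryogenesis-like protein, was at 53.0, 56.3, 84.0 and 53.4 TPM in WT and at 63.7, 145, 173 and 245 TPM in *slmyb60Cr1*. Solyc01g006320, with the same name as Solyc03g121620, was at 25.2, 22.2, 33.5 and 39.1 TPM in WT and at 32.2, 47.4, 80.6 and 87.3 TPM in *slmyb60Cr1*. This gene was called only with the block and without either library of pair 1. The 1-aminocyclopropane-1-carboxylate synthase Solyc08g081550, which makes the precursor of ethylene, was at 8.25, 6.02, 12.5 and 8.55 TPM in WT and at 8.05, 28.1, 23.0 and 33.0 TPM in *slmyb60Cr1*. In these 4 genes replicate 1 lay inside the WT range, and with all 8 libraries and the block the changes on the log2 scale came to 1.23, 1.22, 0.97 and 1.25 (adjusted p from limma = 0.199, 0.138, 0.0828 and 0.192). The heat shock gene Solyc06g076020, a chaperone of the 70 kD class, was at 13.8, 17.0, 14.2 and 13.4 TPM in WT and at 30.1, 37.0, 43.7 and 74.5 TPM in *slmyb60Cr1*, without overlap, and was called without the block but not with it (log2 fold change 1.58, limma adjusted p = 0.0698). The glyoxal oxidase Solyc05g007010, which produces hydrogen peroxide, was at 5.62, 8.37, 6.66 and 7.88 TPM in WT and at 0.963, 1.97, 2.87 and 2.41 TPM in *slmyb60Cr1*. It lay just outside the adjusted p threshold (log2 fold change −1.83, limma adjusted p = 0.0503) and was called without the block.

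Of the phosphate starvation genes, the phosphatase psi14C (Solyc06g062540), known in tomato as a gene induced when phosphate is short, was at 0.118, 0.0978, 0.0765 and 0.0567 TPM in WT and at 2.80, 1.75, 1.74 and 2.10 TPM in *slmyb60Cr1*. It rose from a level at the pseudocount, so the size depends on it (log2 fold change 3.54, standard error 0.29, limma adjusted p = 0.0235, and a log2 fold change of 1.50 with a pseudocount of 1), and every *slmyb60Cr1* library was above WT. The call was lost in 9 of the 27 alternatives, among them the fit with the block and without replicate 1 of *slmyb60Cr1* (limma adjusted p = 0.0698). TPSI1 (Solyc03g098010), a phosphate starvation inducible gene, was at 0.461, 0.422, 0.424 and 0.315 TPM in WT and at 1.74, 1.37, 0.792 and 0.917 TPM in *slmyb60Cr1*, without overlap and without a call (log2 fold change 1.31, limma adjusted p = 0.113). Both genes had their highest value in replicate 1.

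Of 5 tested transporters and channels, also from the study's list of changed genes, 1 was called higher and 1 lower with the block (0.169% and 0.0965% of all genes). The gene of NOD26-like intrinsic protein 1.1, Solyc03g005980, which encodes a channel of the aquaporin family, was at 4.56, 2.35, 2.73 and 1.80 TPM in WT and at 15.5, 15.0, 8.92 and 10.7 TPM in *slmyb60Cr1* (log2 fold change 2.14, standard error 0.21, limma adjusted p = 0.0376). The boron transporter Solyc06g071500, whose Arabidopsis relative exports borate to the xylem, was at 19.5, 17.3, 17.3 and 27.7 TPM in WT and at 9.81, 6.81, 5.96 and 6.77 TPM in *slmyb60Cr1* (log2 fold change −1.47, standard error 0.17, limma adjusted p = 0.047). The groups did not overlap in either gene, and the calls were lost in 16 of the 27 and 17 of the 27 alternatives. The calcium-transporting ATPase Solyc02g064680 was at 39.8, 51.5, 52.1 and 57.0 TPM in WT and at 56.6, 109.6, 99.9 and 146 TPM in *slmyb60Cr1*, and was called only in the fit without the block and replicate 1, which lay within the WT range (log2 fold change 0.97 with all libraries and the block, limma adjusted p = 0.0634). A second calcium-transporting ATPase, Solyc09g082870, was at 1.70, 2.02, 2.62 and 2.67 TPM in WT and at 2.72, 4.47, 10.2 and 13.8 TPM in *slmyb60Cr1* and was not called (log2 fold change 1.50, limma adjusted p = 0.104).

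Among 4 oxygenases, the 2-oxoglutarate and Fe(II)-dependent oxygenase Solyc09g089790, of a family that oxidises small molecules, was at 1.67, 1.46, 1.41 and 1.33 TPM in WT and at 5.89, 4.03, 3.66 and 3.81 TPM in *slmyb60Cr1*. It rose (log2 fold change 1.48, standard error 0.15, limma adjusted p = 0.0376), with replicate 1 apart from the other *slmyb60Cr1* libraries on the high side, and its call was lost with the block when replicate 1 was left out. Its neighbour Solyc09g089780 was at 0.709, 0.182, 0.0474 and 0.580 TPM in WT and at 3.38, 1.16, 1.73 and 2.47 TPM in *slmyb60Cr1* and was not called (log2 fold change 2.45, limma adjusted p = 0.0675). Among 9 signalling genes from that same list 1 was called lower and 0 higher (0.0965% and 0.169% of all genes). By limma 6 genes with a positive and 3 with a negative log2 fold change had an unadjusted p below 0.05, which the choice of the genes made likely. The called gene was Solyc09g008750, a VQ motif-containing protein 29, of a family that binds WRKY transcription factors. It was at 30.3, 20.2, 15.5 and 14.4 TPM in WT and at 2.90, 3.86, 4.92 and 3.33 TPM in *slmyb60Cr1*, without overlap (log2 fold change −2.35, standard error 0.28, limma adjusted p = 0.047). Solyc09g008760, of the same name, also fell without overlap of the groups. It was not called with the block (log2 fold change −1.305, limma adjusted p = 0.0607) or without it (limma adjusted p = 0.128). The calmodulin binding protein gene Solyc03g113980 was at 5.23, 4.42, 6.34 and 5.83 TPM in WT and at 9.49, 12.8, 13.8 and 21.7 TPM in *slmyb60Cr1*, and the kinase gene Solyc06g053730 at 9.54, 10.6, 14.4 and 12.7 and 4.49, 4.88, 3.68 and 2.74 TPM. Neither showed overlap, and both were called without the block but not with it (changes of 1.34 and −1.57 on the log2 scale, adjusted p from limma = 0.0609 and 0.0634).

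The smallest adjusted p of all genes was that of Solyc04g081700, a protein of unknown function. It was at 24.1, 24.3, 24.5 and 19.9 TPM in WT and at 264, 252, 222 and 225 TPM in *slmyb60Cr1*, with little spread in either group (log2 fold change 3.37, standard error 0.07, limma adjusted p = 0.000419). It was the 1 named gene called with all libraries whose call held in each of the 27 alternatives. Solyc09g064750, also of unknown function, was at 16.3, 19.8, 25.1 and 30.3 TPM in WT and at 112, 129, 130.1 and 118 TPM in *slmyb60Cr1* (log2 fold change 2.45, standard error 0.15, limma adjusted p = 0.0119), and its call held without replicate 1. Solyc01g066790, another gene of unknown function, was at 2.07, 0.781, 0.621 and 0 TPM in WT and at 24.7, 20.8, 16.7 and 19.7 TPM in *slmyb60Cr1*, and just missed the threshold with the block (log2 fold change 5.07, limma adjusted p = 0.0581). The WD40 repeat gene Solyc11g011980 was at 3.75, 1.73, 1.48 and 3.33 TPM in WT and at 0.653, 0.346, 0.374 and 0.176 TPM in *slmyb60Cr1*, and was called without the block but not with it (log2 fold change −2.44, limma adjusted p = 0.0694).

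Of the 55 calls, 33 were given no name here, although the study may describe some. Among the 33, Solyc07g026540 was listed at 0 TPM in all WT libraries and at 5.71, 9.98, 10.7 and 7.60 TPM in *slmyb60Cr1* (limma adjusted p = 0.00536), so no fold change is given. Solyc12g036800 was at 5.15, 3.34, 1.34 and 1.79 TPM in WT and at 61.6, 27.9, 10.3 and 16.8 TPM in *slmyb60Cr1*. Libraries of the same number ranked alike in both groups, with replicate 1 the highest and replicate 3 the lowest, and the change was similar in every pair (log2 fold change 3.15, standard error 0.14, limma adjusted p = 0.00536), whereas with all 8 libraries and no block it was not called. Solyc05g017790 was at 20.1, 8.70, 2.79 and 17.8 TPM in WT and listed at 0 TPM in all *slmyb60Cr1* libraries (limma adjusted p = 0.0208). Genes listed at 0 in all libraries of a group made up 5 of the 55 calls, 4 in WT and 1 in *slmyb60Cr1*.

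Whether *slmyb60Cr1* differed from the other edited line was tested on all 12 libraries with the block, over the same 20736 genes. Limma called 53 genes (0.256%), 25 higher in *slmyb60Cr1* (0.121%) and 28 lower (0.135%), and 7 of the 53 were among the 55 calls against WT. Of the genes given a name here 1 was called, the bHLH transcription factor 071. At 12.4, 23.5, 35.2 and 24.7 TPM in *slmyb60Cr2* it lay below WT and overlapped with *slmyb60Cr1* (*slmyb60Cr1* minus *slmyb60Cr2* −1.06, standard error 0.16, limma adjusted p = 0.0294). Solyc07g026540 was at 1.32, 1.08, 0.560 and 0.480 TPM in *slmyb60Cr2* (difference 3.22, limma adjusted p = 0.00813). Solyc05g052670 was at 17.1, 23.3, 25.5 and 34.1 TPM in *slmyb60Cr2*, overlapping with WT (difference −2.13, limma adjusted p = 0.0226). In the cuticle and acyl lipid list 0 of 18 genes and among the xyloglucan endotransglucosylase/hydrolases 0 of 7 were called by limma, with 1 gene at an unadjusted p below 0.05 in each. The study took the genes of both lists from those it found changed in both lines. A low count of differences between the lines was thus largely set by that choice. *SlMYB60* itself was at 2.19, 2.61, 3.15 and 2.87 TPM in *slmyb60Cr2* (difference −0.31, standard error 0.12, limma adjusted p = 0.232), and a p that misses the threshold does not show that the lines were alike.

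**Figure D5:**
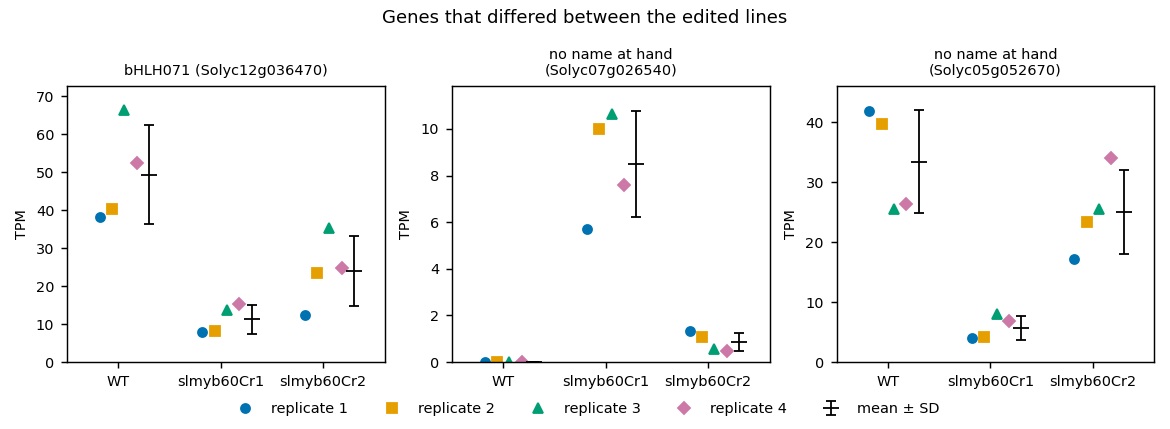
TPM in the WT, slmyb60Cr1 and slmyb60Cr2 libraries (points, shape and colour by replicate number) with the group mean ± SD (black), on linear axes from 0, for 3 genes called in the test of slmyb60Cr1 against slmyb60Cr2. Solyc07g026540 is listed at 0 in WT and highest in slmyb60Cr1, and the means of the other genes are lowest in slmyb60Cr1.

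By function, the rank of replicate 1 of *slmyb60Cr1* within its group differed. It was the lowest *slmyb60Cr1* library in 6 of 7 xyloglucan endotransglucosylase/hydrolases, 7 of 12 other cell wall genes, 8 of 15 transcription factors, 8 of 15 redox, defence and stress genes and 6 of 9 signalling genes, against 29.8% of all genes tested. In the cuticle and acyl lipid list it was the lowest in 3 of 18 and the highest in 9 of 18, against 37.9% of all genes for the highest. In a list that mixes rises and falls, the lowest library is not always the nearest to WT. Taken in the direction of each gene's change, pair 1 was smallest in 7 of 7 xyloglucan and 6 of 12 other cell wall genes. It was so in 8 of 15 redox, defence and stress genes, 4 of 9 signalling genes and 2 of 15 transcription factors. In the transcription factors pair 1 was the largest in 5 of 15. For the cuticle and acyl lipid genes it was the smallest in 4 of 18 and the largest in 6 of 18. Over all genes tested, pair 1 was the smallest in 26.3% and the largest in 24%. Calls that held with and without replicate 1, in both the fit with the block and the fit without, included *SlMYB60*, bHLH transcription factor 071, Solyc04g081700, Solyc09g064750, the lipid transfer protein gene Solyc10g075090, Solyc02g150135 and the glutathione S-transferase gene Solyc10g084960.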

How the data were processed

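Poly(A) RNA of tomato leaves was sequenced by the authors as paired-end reads, and transcript levels were estimated with Salmon on the ITAG 4.0 transcripts. The deposited values are TPM per gene and library, with no replicates pooled. For their own tests the authors used DESeq2 on Salmon estimates, which TPM cannot repeat. The study lists read totals for each library, but TPM holds no counts per gene, so no counting error is given.

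Here limma 3.58.1 in R 4.3.3 was fitted with an intensity trend to log2(TPM + 0.1) of the 4 WT and 4 *slmyb60Cr1* libraries, with the replicate number as a fixed block, for 20736 genes at 0.5 TPM or more in at least 4 of 8 libraries. Thresholds were an adjusted p (Benjamini-Hochberg) below 0.05 and a log2 fold change beyond 1. The line difference was fitted to 12 libraries. The procedure was run on simulated data with independent libraries. These held no pairing by replicate number and no outlying library. The run could therefore not test the use of the block or the effect of replicate 1. With the block, p-values measure the spread between pools of plants that is left after libraries of the same number are paired. Without it they measure the spread between pools of a genotype.

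The rule for named genes took *SlMYB60*, the cuticle genes and the xyloglucan endotransglucosylase/hydrolases of the study, the 10 largest rises and falls among called genes with a name, the 5 smallest adjusted p, and genes whose call turned on replicate 1 of *slmyb60Cr1*. Some further list members, and Solyc05g052670, were chosen after their values were seen. The members and lists were chosen with earlier results of these data known. Of 122 identifiers given a name here, 115 were matched and 102 tested. The study describes further genes that were not taken up. The identifiers were read from page text, some may be misread, and those doubted are only counted, except Solyc02g150135, whose values are given. Keyword lists and cell type markers could not be applied. Figures were drawn with matplotlib 3.10.9. Alternatives covered the block, the libraries fitted, the pseudocount, the TPM limit, the scaling, limma's variance settings and the omission of single libraries.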

Additional observations from a re-analysis of the deposited data

Results flagged for a closer look

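In 138 groups of 4 libraries, over most of the genes named above and others of the same lists, 11 had 1 library far from the other 3 (Dixon's ratio past its critical value for 4 samples). Chance alone flags about 1 in 20 such groups. In WT, replicate 1 was at 36.5 TPM for Solyc04g007000 (others 17.0 to 20.3), at 0.296 TPM for Solyc06g076930 (others 0.306) and at 0.103 TPM for Solyc06g060870 (others 0.0356 to 0.0456). WT replicate 3 was at 4.58 TPM for Solyc12g008930 (others 1.74 to 2.03), at 2.22 TPM for Solyc10g050970 (others 0.0882 to 0.236) and at 84.0 TPM for Solyc01g095150 (others 53.0 to 56.3). WT replicate 4 was at 30.0 TPM for Solyc09g092520 (others 21.9 to 22.9) and at 19.9 TPM for Solyc04g081700 (others 24.1 to 24.5). Replicate 1 of *slmyb60Cr1* was at 5.89 TPM for Solyc09g089790 (others 3.66 to 4.03) and at 1.40 TPM for Solyc06g070950 (others 0.809 to 0.860), and replicate 4 at 0.297 TPM for Solyc12g096790 (others 0.451 to 0.480).

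The test of *slmyb60Cr1* against *slmyb60Cr2* called 3 genes named above, with log2 differences of −2.13 for Solyc05g052670, −1.06 for the bHLH transcription factor 071 (Solyc12g036470) and 3.22 for Solyc07g026540.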

How the results depend on the processing

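The number of calls depended on how the replicate numbers entered. Deviations from the group means correlated by 0.348, −0.0501, 0.202 and 0.153 in pairs 1 to 4, so pair 2 gave no sign of pairing, and WT replicate 4 correlated more with *slmyb60Cr1* replicate 3 (0.381) than with its own number. Without the replicate block 88 genes were called (54 higher, 34 lower), with it as a random effect 143 (97 and 46), with library weights 87 (55 and 32) and in the 12-library fit with the block 204 (141 and 63). Calls fell to 28 with no TPM limit (22 and 6), to 25 without the intensity trend (20 and 5) and to 6 with a null hypothesis of at most 1 log2 unit in place of 0 (5 and 1). Median-of-ratios scaling left 12 lower genes. With the block, leaving out each library in turn gave 1 to 31 calls (1 to 27 higher, 0 to 4 lower, where at 0 limma gave 2172 or more lower genes an unadjusted p below 0.05). Without the block it gave 42 to 221 (25 to 174 higher, 17 to 47 lower). The other settings stayed within 1.5 times of 55, 35 or 20. For *SlMYB60* the log2 fold change was −2.96 to −2.74 with the block and −2.97 to −2.70 without it over the libraries left out, and the call was lost in 4 of these fits, all with the block. The count for *slmyb60Cr1* against *slmyb60Cr2* was 53, and 34 without the block, 124 with library weights and 0 with the null of 1 log2 unit (limma, 63 with an unadjusted p below 0.05). It was 11 to 55 with a library left out. Without the block as well, it was 34, 33, 24 and 30 without WT replicates 1 to 4, and 32, 8, 19 and 30 without those of *slmyb60Cr1*. No gene followed through the alternatives changed direction under any of them. TPM carries no counts per gene, so which low values are within counting error is unknown here.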
